A study of Mus musculus with 10 samples.

Results

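Collagen chain genes were taken as every gene on the array whose symbol has the form of a collagen alpha chain (Col, a type number, a, a chain number), which gave 42 of the 18193 genes measured. They comprised 11 fibrillar chains, 5 chains of type VI, 6 chains of the basement membrane collagen type IV, 9 FACIT chains (fibril-associated collagens with interrupted helices), 3 short chain network collagens, 4 transmembrane collagens, 2 multiplexins and 2 others. Each gene is given by its brightest probe set on average over the 10 arrays, as intensity on the deposited linear scale. The 10 Affymetrix arrays hold RNA of 3T3-L1, an established line of mouse fibroblasts that can turn into fat cells, here kept as unstimulated preadipocytes in calf serum. The groups were cells transfected with an siRNA against LSD1 (siLsd1) and cells transfected with a scrambled siRNA (siC), each at 60 nM. Cells of passage 19 were harvested 24 h after transfection (2 arrays for each siRNA), and cells of passage 21 after 48 h (3 arrays for each siRNA). All 4 groups were of 1 cell line and stayed in the transfection medium. The replicates are biological by the submitters' account, and p-values rest on the spread among these samples alone.

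Collagens are the main proteins of connective tissue matrix. Alpha chains are wound into a rope-like helix in the endoplasmic reticulum, secreted, trimmed and cross-linked. Fibrillar collagens form the tensile fibres, FACITs decorate their surface, type IV forms the sheet under epithelia and around fat cells, and type VI forms beaded filaments between cells and fibres. Fibroblasts and preadipocytes make mostly types I, III, V and VI, and preadipocytes turning into fat cells exchange a fibrillar matrix for one richer in basement membrane. LSD1, encoded by Kdm1a, is a histone demethylase of transcriptional corepressor complexes.

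With siLsd1, 27 of the 32 chain genes bright enough to test had a negative log2 change at 24 h and 26 of 32 at 48 h, and those that passed the test were 3 chains of type VI collagen, Col8a1 and Col9a1. At 24 h 2 of 32 were called lower (Col6a2 and Col9a1), against 2.79% of the 13644 genes tested, and 0 were called higher, against 2.6%. At 48 h 4 of 32 were called lower (Col6a1, Col6a2, Col6a3 and Col8a1), against 6.67% of all genes, and 0 were called higher, against 6%. A gene was called at a limma adjusted p under 0.05, from 1 fit over all genes and all 10 arrays. The median log2 change of the 32 was −0.23 at 24 h and −0.23 at 48 h, and that of all genes tested was −0.02 at both times. In RNA from whole cultures, fewer cells that make a chain and less RNA per cell cannot be told apart.

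Single arrays were also compared, without a test. At 24 h both siLsd1 arrays lay below both siC arrays for 21 of the 32 genes (65.6%), where 33.9% of all genes tested did so, and above them for 1 gene, Col6a4 (3.12%), against 27.5% of all genes. At 48 h all 3 siLsd1 arrays lay below all 3 siC arrays for 14 genes (43.8%), against 20.9%, and above them for 0, against 16.6%. The arrays of the groups were apart in the lower direction at both times for 12 genes, namely Col1a1, Col3a1, Col5a1, Col5a2, Col5a3, Col27a1, Col6a1, Col6a2, Col6a3, Col4a2, Col4a5 and Col8a1. How many of all genes were apart at both times was not counted, so this number has no share to be set against.

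One array weighs on every test. SiLsd1 48 h replicate 3 differed from its replicates by an SD of 0.44 on the log2 scale over 6943 bright genes, whereas other arrays of the same group differed by 0.09 to 0.20. For 19 of the 32 chain genes (59.4%) and 57.1% of all genes tested, this array was nearer to the mean of the siLsd1 24 h arrays than to its own replicates. It enters the shared estimate of spread, so counts are also given without it. Without it 14 of 32 chain genes were called lower at 24 h (15.3% of all genes) and 0 higher (10.1%). At 48 h 9 were then called lower (9.96%) and 0 higher (8.16%). The median log2 change of the 32 was then −0.23 at 24 h and −0.13 at 48 h, with 27 of 32 changes negative at 48 h. Of the siLsd1 48 h arrays, the other 2 lay below all siC arrays for 15 genes (46.9%), against 25.8% of all genes, and above them for 1 gene, Col12a1 (3.12%), against 21.6%. Groups were then apart in the lower direction at both times for 13 genes, the 12 named and Col18a1, again without a count over all genes. Kdm1a, the targeted gene, had intensities of 1001 and 971 with siLsd1, against 1559 and 1621 with siC at 24 h. At 48 h it had 1352, 1336 and 897 with siLsd1, against 1596, 1787 and 1775 with siC, so that replicate 3 was the lowest of the 10 arrays.

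**Figure D1:**
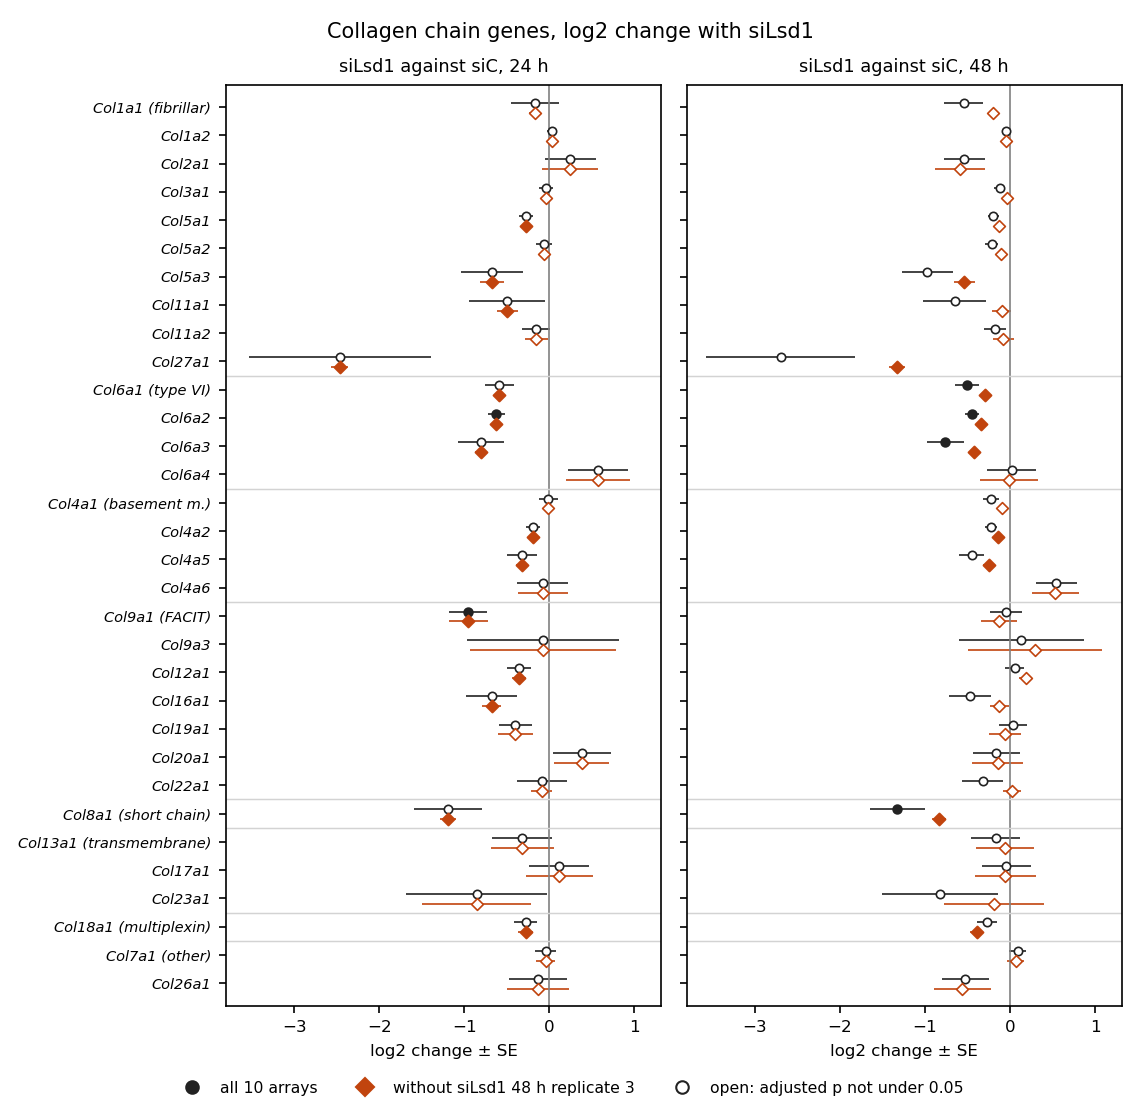
Log2 change (siLsd1 minus siC, x axis, with SE) of each of the 32 chain genes tested, by class, at 24 h (left) and 48 h (right). Circles are the fit to 10 arrays and diamonds the fit without siLsd1 48 h replicate 3, and filled symbols have an adjusted p under 0.05. Filled circles are 2 at 24 h and 4 at 48 h, all left of 0, and filled diamonds are 14 and 9, all left of 0.

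The promoters of Col6a1, Col6a2, Col6a3 and Col8a1, the 4 chain genes called at 48 h, and of Col27a1, which had the largest log2 change, are printed 5′ to 3′ on the gene's own strand, from 250 bases before to 50 after the start of transcription (RefSeq, GRCm38.p6). Capitals mark a GC box core (GGGCGG, or CCGCCC on the other strand), a CCAAT box (CCAAT or ATTGG) or a TATA box (TATAAA or TTTATA), and capitals that run on mark motifs that touch or overlap.
Col6a1 (chr10:76725995-76726294, minus strand): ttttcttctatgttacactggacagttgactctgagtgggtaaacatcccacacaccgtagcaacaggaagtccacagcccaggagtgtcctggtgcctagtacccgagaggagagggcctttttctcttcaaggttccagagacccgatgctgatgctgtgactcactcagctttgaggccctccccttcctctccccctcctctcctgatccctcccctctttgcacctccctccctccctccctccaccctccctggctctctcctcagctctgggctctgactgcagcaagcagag
Col6a2 (chr10:76623355-76623654, minus strand): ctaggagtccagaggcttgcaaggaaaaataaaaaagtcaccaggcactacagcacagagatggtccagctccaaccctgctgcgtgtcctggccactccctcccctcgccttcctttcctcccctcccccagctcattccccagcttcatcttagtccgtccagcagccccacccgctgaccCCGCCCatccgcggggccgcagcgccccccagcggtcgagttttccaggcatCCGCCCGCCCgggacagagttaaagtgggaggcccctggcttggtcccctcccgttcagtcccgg
Col6a3 (chr1:90843922-90844221, minus strand): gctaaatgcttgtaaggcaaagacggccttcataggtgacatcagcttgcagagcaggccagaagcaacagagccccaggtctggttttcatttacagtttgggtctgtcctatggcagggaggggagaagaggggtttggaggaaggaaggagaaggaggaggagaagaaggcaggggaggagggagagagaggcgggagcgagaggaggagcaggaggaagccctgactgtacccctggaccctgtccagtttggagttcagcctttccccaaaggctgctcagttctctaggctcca
Col8a1 (chr16:57754688-57754987, minus strand): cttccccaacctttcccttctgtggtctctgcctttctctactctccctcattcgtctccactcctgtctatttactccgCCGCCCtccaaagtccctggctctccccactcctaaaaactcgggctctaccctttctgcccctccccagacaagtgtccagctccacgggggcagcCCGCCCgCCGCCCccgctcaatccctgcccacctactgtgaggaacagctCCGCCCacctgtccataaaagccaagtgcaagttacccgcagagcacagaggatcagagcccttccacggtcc
Col27a1 (chr4:63215162-63215461, plus strand): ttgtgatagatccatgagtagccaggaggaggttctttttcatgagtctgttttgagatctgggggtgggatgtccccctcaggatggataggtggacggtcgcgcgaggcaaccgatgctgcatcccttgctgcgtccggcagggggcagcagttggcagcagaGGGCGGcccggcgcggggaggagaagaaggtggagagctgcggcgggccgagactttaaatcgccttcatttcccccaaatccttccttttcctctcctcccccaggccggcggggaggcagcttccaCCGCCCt
Col4a1 and Col4a2 lie head to head, and their windows share 78 bases, given on the strand of Col4a2.
Col4a1 and Col4a2 (chr8:11312777-11312854, plus strand): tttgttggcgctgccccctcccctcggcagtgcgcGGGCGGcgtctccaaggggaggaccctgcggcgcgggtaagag

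The promoter table held 36 windows of 33 chain genes. Col1a1, Col2a1, Col5a2, Col12a1, Col14a1, Col22a1, Col26a1, Col9a3 and Col4a3 had no entry. A GC box core stood in 22 of the 36 windows (61.1%), against 35.7% of all 32851 windows of the same length. The CCAAT box stood in 13 of 36 (36.1%), against 37.4%, and the TATA box in 5 (13.9%), against 13.6%. Of the printed windows, those of Col6a1 and Col6a3 held none of the 3 motifs, and those of Col6a2, Col8a1 and Col27a1 held 3, 4 and 2 GC box cores. A second window of Col6a2, at another start of transcription and not printed, held 1 GC box core. Col6a2 and Col6a1 are also neighbours in RefSeq, on the same strand of chromosome 10.

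The 3 main chains of type VI collagen, encoded by Col6a1, Col6a2 and Col6a3, assemble together into the beaded filaments of the matrix around cells, and every siLsd1 array lay below every siC array of its time for all 3. Col6a2 had intensities of 4545 and 4572 with siLsd1, against 6972 and 7054 with siC at 24 h. At 48 h it had 6417, 6775 and 5232 with siLsd1, against 8561, 8017 and 8400.5 with siC. The arrays of the siRNA groups did not overlap at either time, and each siLsd1 48 h array was above both siLsd1 24 h arrays. Col6a2 fell 1.54-fold at 24 h (4558 ± 19.3 with siLsd1 and 7013 ± 57.5 with siC, SD, n = 2 each; log2 change −0.62 with SE 0.10, adjusted p 0.00986 by limma). Means ± SD are of linear intensities, and folds are from mean log2 intensities. At 48 h it fell 1.36-fold (6141 ± 808 with siLsd1 and 8326 ± 279 with siC, SD, n = 3 each; log2 change −0.45 with SE 0.08, adjusted p 0.012 by limma). A second probe set of Col6a2 gave log2 changes of −0.63 and −0.48.

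Col6a1 had intensities of 2953 and 2683 with siLsd1, against 4292 and 4158 with siC at 24 h, and 4583, 4713 and 2995 with siLsd1, against 5782, 5773 and 5531 with siC at 48 h. Its siLsd1 arrays lay below all siC arrays of the same time, and at 48 h replicate 3 was close to the 24 h siLsd1 arrays. The 48 h difference was a 1.42-fold fall (4097 ± 956 with siLsd1 and 5695 ± 143 with siC, SD, n = 3 each; log2 change −0.50 with SE 0.14, adjusted p 0.047 by limma). At 24 h the log2 change was of similar size but missed the threshold (log2 change −0.59 with SE 0.18, adjusted p 0.0839 by limma). Col6a3, which encodes the longest of these chains, had 2941 and 3154 with siLsd1, against 5529 and 5133 with siC at 24 h, and 4304, 4432 and 2179 with siLsd1, against 6221, 5588 and 5839 with siC at 48 h. The lowest of these 10 intensities was that of siLsd1 48 h replicate 3. Col6a3 fell 1.70-fold at 48 h (3638 ± 1265 with siLsd1 and 5882 ± 319 with siC, SD, n = 3 each; log2 change −0.76 with SE 0.22, adjusted p 0.0481 by limma), and its 24 h change missed the threshold (log2 change −0.81 with SE 0.27, adjusted p 0.112 by limma).

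Without replicate 3, all 3 chains were called at both times. Their log2 changes at 24 h were −0.59 for Col6a1, −0.62 for Col6a2 and −0.81 for Col6a3 (limma adjusted p 3.9e-05, 1e-05 and 1.19e-05). At 48 h they were −0.29, −0.34 and −0.43 in the same order (limma adjusted p 0.00253, 0.000419 and 0.000552), each nearer to 0 than with the array. Calls of Col6a1 and Col6a3 at 48 h were lost without any 1 of the 3 siC 48 h arrays, any siC 24 h array or either siLsd1 24 h array. Processing choices also undid both calls, among them no filter on dim genes and no intensity trend, which made 12 of 23 alternatives in all. Col6a4, a further mouse chain that can take the place of the Col6a3 chain, had 14.7 to 40.0, with no call.

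**Figure D2:**
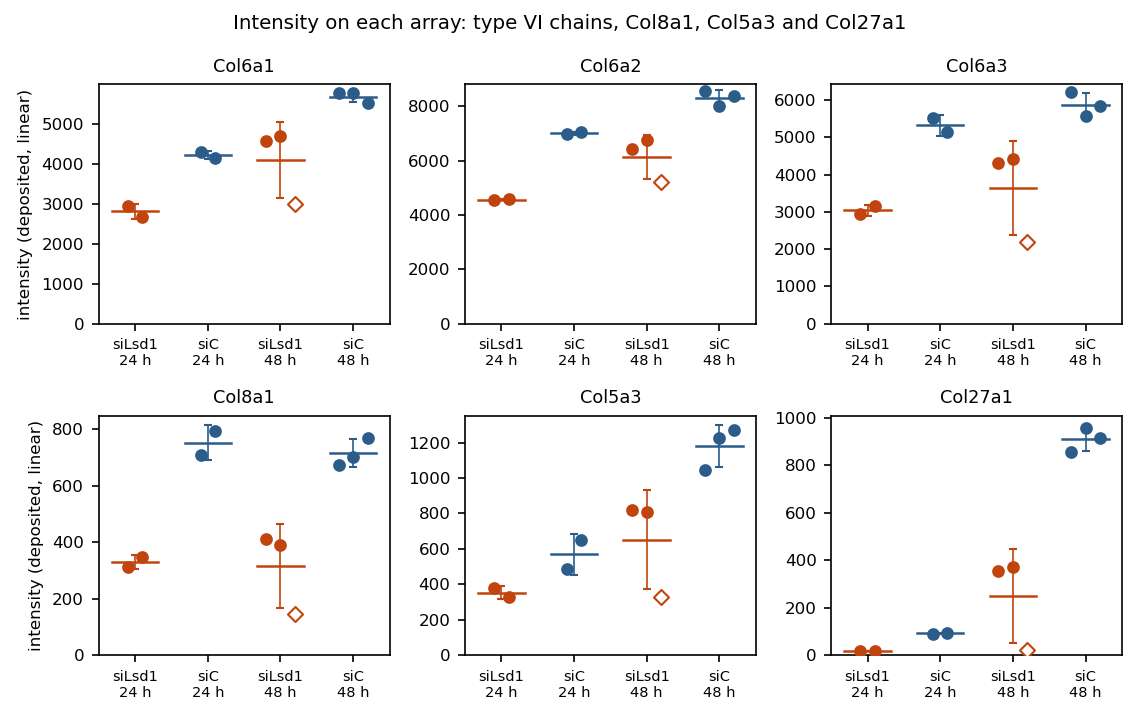
Intensity (y axis, deposited linear scale) of Col6a1, Col6a2, Col6a3, Col8a1, Col5a3 and Col27a1 on each array, with siLsd1 left of siC at each time. Lines and bars are means ± SD of 2 arrays at 24 h and 3 at 48 h, and the open diamond is siLsd1 48 h replicate 3. No siLsd1 array reaches a siC array of the same time in any panel.

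The chains of types I and III, the bulk of fibroblast fibrils, passed the test in no siRNA comparison. Col1a1 had intensities of 4658 and 4801 with siLsd1, against 5483 and 5168 with siC at 24 h, and 4344, 4519 and 2143 with siLsd1, against 5489, 5096 and 4669 with siC at 48 h. Its siLsd1 arrays were below the siC arrays at both times, with replicate 3 far under its own replicates. The log2 change was −0.17 at 24 h and −0.54 at 48 h (limma adjusted p 0.773 and 0.136), and at 48 h it was −0.20 without replicate 3 (limma adjusted p 0.0531). Col1a2, its partner chain in type I, had 13894 and 14082 with siLsd1, against 14199 and 13207 with siC at 24 h, and 12417, 12849 and 12584 with siLsd1, against 13656, 12705 and 12832 with siC at 48 h. Col3a1, which forms type III alone, had 12260.1 and 11952 with siLsd1, against 12515 and 12368 with siC at 24 h, and 12768, 12598 and 10589.9 with siLsd1, against 12868, 12977 and 13110.5 with siC at 48 h. The groups of Col1a2 overlapped at both times, and those of Col3a1 were apart by small steps.

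Col1a2 and Col3a1 were read by probe sets close to the top of the intensity scale, which ended at 15820 in these data, and their other probe sets differed more. For Col1a2 the probe set of middle intensity, at 7636 to 11648, had log2 changes of −0.09 at 24 h and −0.25 at 48 h. These were much nearer to those of the brightest probe set than to those of the dimmest. The dimmest probe set of Col1a2 had 157 and 158 with siLsd1, against 213 and 227 with siC at 24 h, and 724, 763 and 316 with siLsd1, against 1094, 1183 and 1204 with siC at 48 h. That probe set was 2.07-fold lower with siLsd1 at 48 h (log2 change −1.05 with SE 0.27, adjusted p 0.0454 by limma over all probe sets), and not called at 24 h (log2 change −0.48 with SE 0.33, adjusted p 0.499 by limma over all probe sets). The second probe set of Col3a1 had 3091 and 2891 with siLsd1, against 3779 and 4185 with siC at 24 h, and 4729, 4708 and 1848 with siLsd1, against 4971, 5328 and 5454 with siC at 48 h. Its groups did not overlap, and neither difference was called (log2 changes −0.41 and −0.60). The second probe set of Col1a1 gave −0.28 and −0.63, without a call. Whether the top of the scale narrowed the differences of the bright probe sets was not tested.

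**Figure D3:**
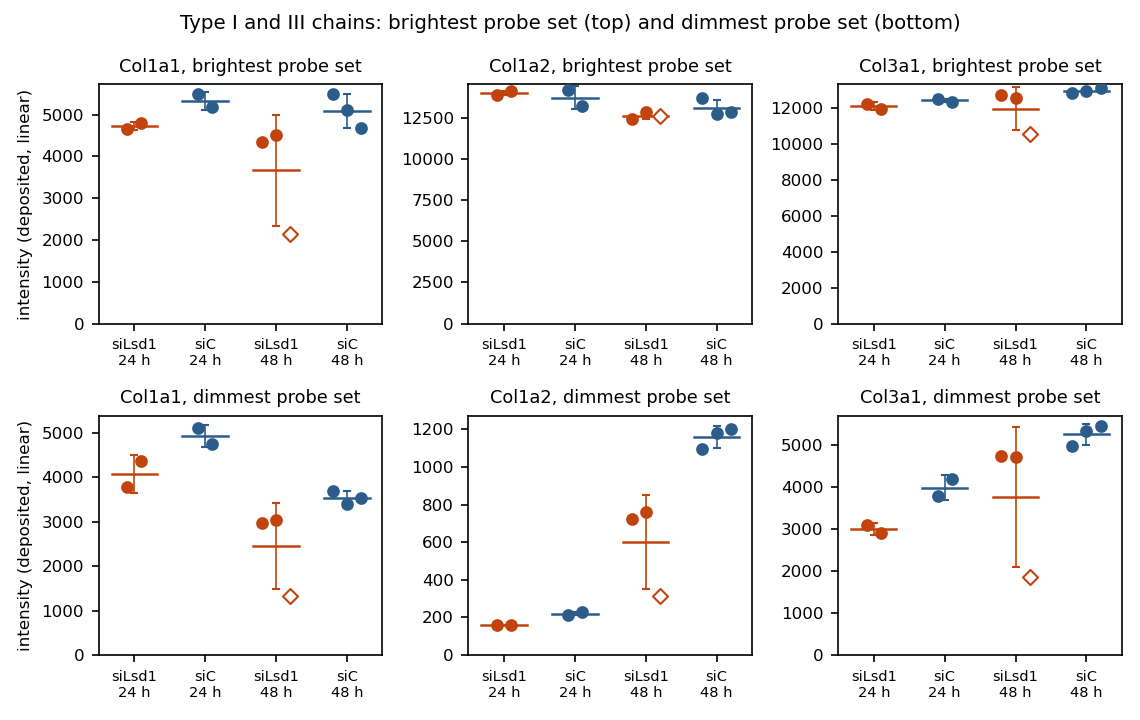
Intensity (y axis, deposited linear scale, from 0) of Col1a1, Col1a2 and Col3a1 on each array by the brightest (top row) and the dimmest (bottom row) probe set of each gene, siLsd1 left of siC. Lines and bars are means ± SD of 2 arrays at 24 h and 3 at 48 h, and the open diamond is siLsd1 48 h replicate 3. The bright Col1a2 and Col3a1 probe sets are nearly level, while siLsd1 arrays lie below siC arrays of the same time in every lower panel. The Col1a2 probe set of middle intensity is not drawn.

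Type V collagen sits inside type I fibrils and sets their width. Col5a1, its main chain, had intensities of 4285 and 4269.7 with siLsd1, against 5174 and 5162 with siC at 24 h, and 4369, 4644 and 3885 with siLsd1, against 5029.6, 4892 and 4852 with siC at 48 h. The groups were apart at both times, by a log2 change of −0.27 at 24 h and −0.20 at 48 h (limma adjusted p 0.0757 and 0.0672). The 24 h change was called without replicate 3 (limma adjusted p 0.00144), but both other probe sets of Col5a1 had log2 changes of about 0 at 24 h (0.04 and 0.02). Col5a2 had 8392 and 8414 with siLsd1, against 8735 and 8748 with siC at 24 h, and 7395, 7540.4 and 5984 with siLsd1, against 7999, 7973 and 8181 with siC at 48 h. Its groups were apart by log2 changes of −0.06 and −0.21, neither called.

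Col5a3 encodes a chain found in part of type V molecules. It had 380.2 and 326 with siLsd1, against 484 and 651 with siC at 24 h, and 817, 806 and 328 with siLsd1, against 1048, 1226 and 1272 with siC at 48 h. At 48 h replicate 3 was level with the siLsd1 24 h arrays, and the other 2 siLsd1 arrays were between these and siC. The log2 changes of −0.67 and −0.97 were not called (limma adjusted p 0.318 and 0.0595). Its other probe set differed in sign (0.57 and 0.10). Without replicate 3 the brighter probe set was called at both times, at −0.67 and −0.54 (limma adjusted p 0.00422 and 0.0128).

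Col27a1, a fibrillar collagen best known from cartilage, had the largest log2 change of the 32 genes at both times. Its intensities were 15.7 and 17.3 with siLsd1, against 90.2 and 92.1 with siC at 24 h. At 48 h they were 354, 371 and 20.9 with siLsd1, against 856, 956 and 916 with siC. At 24 h the siLsd1 arrays were below 18.4, the mean under which genes were left out as dim, and at 48 h replicate 3 was near that level while its replicates were not. The log2 changes, −2.47 (SE 1.07) and −2.70 (SE 0.87), were not called, and the spread of the siLsd1 48 h arrays enters the SE of both (limma adjusted p 0.208 and 0.067). Without replicate 3 they were −2.47 and −1.33 with an SE of 0.10 and 0.09 (limma adjusted p 5.25e-07 and 7.55e-06). With intensities under 18.4 raised to that level, Col27a1 was 4.95-fold lower at 24 h. Its other probe set gave 25.6 and 41.0 with siLsd1, against 46.8 and 66.5 with siC at 24 h, and 173, 161 and 35.5 with siLsd1, against 375, 408 and 397 with siC at 48 h, and was called at 48 h (log2 change −1.98 with SE 0.51, adjusted p 0.0441 by limma over all probe sets).

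Among the other fibrillar chains tested, Col11a1, which is close kin to the type V chains, had 172 and 198 with siLsd1, against 270.1 and 249.8 with siC at 24 h, and 343, 320.4 and 105 with siLsd1, against 391, 370.1 and 309.6 with siC at 48 h. Replicate 3 was the lowest of the 10 arrays, and the other 48 h arrays of the groups overlapped. It was called lower at 24 h without replicate 3 (log2 change −0.49, limma adjusted p 0.0117) and not at 48 h. Col11a2 and the cartilage chain Col2a1 were dimmer, at 95.5 to 152 and 18.6 to 32.5, with no call. Over the 10 fibrillar chains tested, 0 were called in either direction at 24 h and at 48 h with all arrays. Without replicate 3, 4 were lower at 24 h (Col5a1, Col5a3, Col11a1 and Col27a1) and 2 at 48 h (Col5a3 and Col27a1). Of all genes, 15.3% and 9.96% were called lower at these times in that fit.

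The basement membrane chains of type IV passed the test in no siRNA comparison with all arrays. Col4a1, which pairs with Col4a2 in the common type IV network, had 6486 and 6613 with siLsd1, against 6618 and 6574 with siC at 24 h, and 5230.1, 5359 and 4023 with siLsd1, against 5536, 5696 and 5748 with siC at 48 h. The 24 h groups overlapped, and the siLsd1 48 h arrays were below siC, furthest for replicate 3. A second bright Col4a1 probe set had 3113 and 3127 with siLsd1, against 3736 and 3691 with siC at 24 h, with no overlap, and log2 changes of −0.25 at 24 h and −0.27 at 48 h, not called. Col4a2 had 5026 and 4908 with siLsd1, against 5735 and 5621 with siC at 24 h, and 4243, 4436 and 3648 with siLsd1, against 4899, 4692 and 4793 with siC at 48 h, with no overlap at either time. Side by side, the brightest probe sets of these head-to-head genes had log2 changes of −0.01 (Col4a1) and −0.19 (Col4a2) at 24 h, and of −0.23 each at 48 h. None of the 4 was called (limma adjusted p 0.973 and 0.217 at 24 h, 0.127 and 0.0581 at 48 h). Without replicate 3, Col4a2 was called at both times (−0.19 and −0.14; limma adjusted p 0.0096 and 0.0347) and Col4a1 at neither (limma adjusted p 0.9 and 0.11).

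Col4a5 encodes a chain of the more specialised type IV networks. Its intensities were 3009 and 2998 with siLsd1, against 3515 and 4017 with siC at 24 h, and 3069, 3065 and 2017 with siLsd1, against 3418, 3654 and 3889 with siC at 48 h. The groups did not overlap, with log2 changes of −0.32 and −0.45 (limma adjusted p 0.316 and 0.0645), and both were called without replicate 3 (limma adjusted p 0.00717 and 0.0232). Col4a6, its head-to-head neighbour on the X chromosome, had 36.1 to 92.0 and was not called. Col4a3 and Col4a4, the remaining pair, were among the dim genes that were not tested.

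Col8a1, the chain of a short collagen that forms hexagonal lattices in vessel walls and the cornea, had intensities of 312 and 347 with siLsd1, against 708 and 796 with siC at 24 h. At 48 h it had 412, 390.5 and 144 with siLsd1, against 674, 702 and 770.2 with siC. The groups did not overlap, the siC arrays of both times were level, and replicate 3 was the lowest array. Col8a1 fell 2.51-fold at 48 h (316 ± 149 with siLsd1 and 716 ± 49.3 with siC, SD, n = 3 each; log2 change −1.33 with SE 0.32, adjusted p 0.0303 by limma). At 24 h the log2 change missed the threshold (log2 change −1.19 with SE 0.40, adjusted p 0.112 by limma). Without replicate 3 it was called at both times, at −1.19 and −0.83 (limma adjusted p 1.34e-05 and 9.9e-05). Both other probe sets had negative changes at 48 h (−1.38 and −0.67). The call at 48 h was lost without any 1 of the siC 48 h, siC 24 h or siLsd1 24 h arrays. It was also lost with no intensity trend and with only the 48 h arrays in the fit.

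Among the FACIT chains, Col9a1, a chain of the cartilage collagen IX, was called at 24 h. It had 20.7 and 28.2 with siLsd1, against 50.9 and 43.0 with siC at 24 h, and 42.5, 40.3 and 49.0 with siLsd1, against 44.5, 50.6 and 41.1 with siC at 48 h. The 24 h groups were apart and the 48 h groups overlapped. The 24 h fall was 1.94-fold (24.4 ± 5.32 with siLsd1 and 47.0 ± 5.52 with siC, SD, n = 2 each; log2 change −0.95 with SE 0.23, adjusted p 0.0394 by limma). These are dim intensities, the other probe set had a log2 change of the opposite sign (0.13), and the call was lost in 14 of 22 alternative settings.

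Col12a1, a FACIT of dense connective tissue, had 1015 and 1171 with siLsd1, against 1449.9 and 1341 with siC at 24 h, and 1045, 1049 and 799 with siLsd1, against 875, 975 and 916 with siC at 48 h. The siLsd1 arrays were below siC at 24 h, and at 48 h 2 of 3 were above all siC arrays. Its 3 other probe sets had log2 changes of −0.02, −0.26 and 1.17 at 24 h. Col16a1, which lies on thin fibrils, had 856 and 836 with siLsd1, against 1211 and 1515 with siC at 24 h, and 1695, 1785 and 840.2 with siLsd1, against 1651, 1978 and 2083 with siC at 48 h. Its 24 h groups were apart, and at 48 h replicate 3 was level with the siLsd1 24 h arrays while its replicates were within the siC range. Neither gene was called by siRNA with all arrays (limma adjusted p 0.168 and 0.777 for Col12a1, 0.215 and 0.215 for Col16a1). Both were lower at 24 h without replicate 3 (log2 changes −0.36 and −0.68, limma adjusted p 0.00877 and 0.0016). Col9a3, Col19a1, Col20a1 and Col22a1 had intensities of 16.2 to 171 and no call.

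Of the remaining chains, Col18a1, a multiplexin of basement membranes whose end fragment is endostatin, had 344 and 358 with siLsd1, against 453 and 401 with siC at 24 h, and 362, 338 and 451 with siLsd1, against 445, 480.4 and 451 with siC at 48 h. On this probe set replicate 3 was within the siC range, unlike its replicates. Its log2 changes were −0.28 and −0.27 (limma adjusted p 0.273 and 0.136), and −0.28 and −0.39, both called, without replicate 3 (limma adjusted p 0.0362 and 0.00637). The other Col18a1 probe set had 280.3 and 293 with siLsd1, against 452 and 414 with siC at 24 h, and 307, 292 and 287 with siLsd1, against 396, 412 and 381 with siC at 48 h. There replicate 3 was beside its replicates and no siLsd1 array reached siC, and with all arrays Col18a1 fell at 24 h (log2 change −0.59 with SE 0.10, adjusted p 0.0202 by limma over all probe sets) and at 48 h (log2 change −0.42 with SE 0.09, adjusted p 0.0223 by limma over all probe sets). Col7a1, the anchoring fibril chain of skin, had 173 to 235. The transmembrane chains Col13a1, Col17a1 and Col23a1 and the little-studied Col26a1 had 10.6 to 98.7. None of these 5 genes, Col7a1 to Col26a1, was called by siRNA in either fit.

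**Figure D4:**
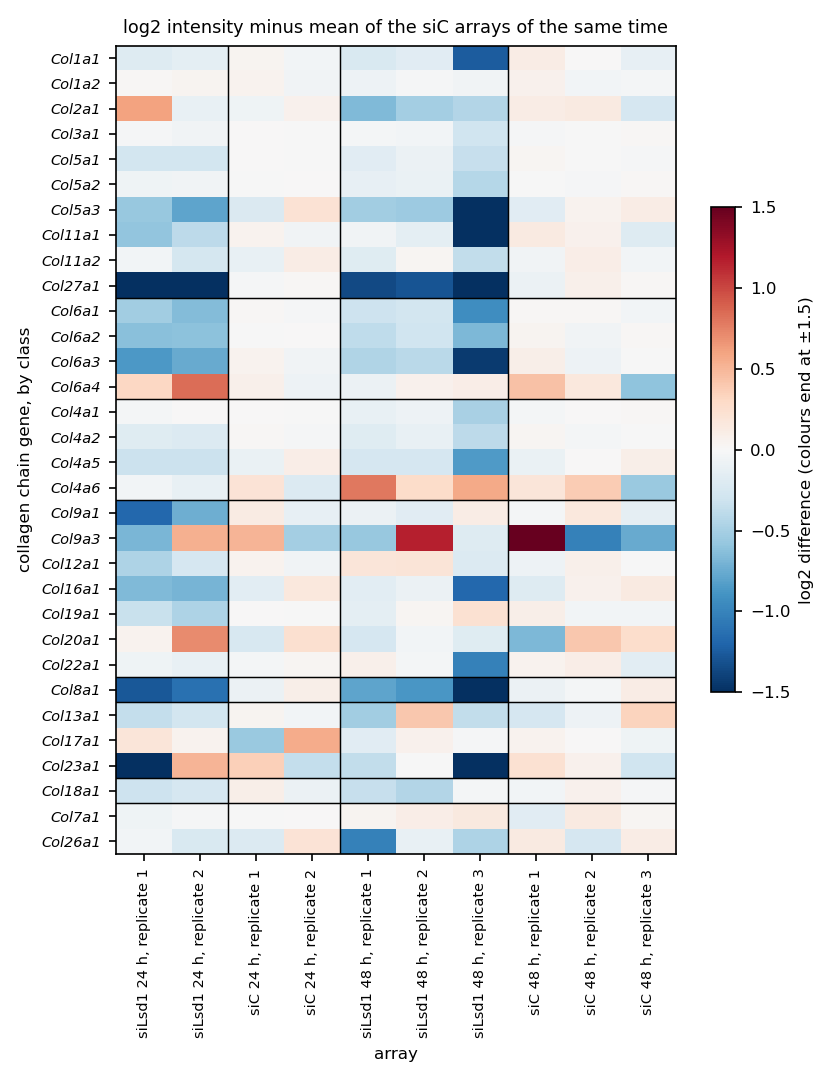
Log2 intensity of each of the 32 chain genes tested (rows, by class) on each array (columns) minus the mean of the siC arrays of the same time, blue for lower and red for higher, with colours ending at ±1.5. The median over the 32 genes is −0.29 and −0.24 on the siLsd1 24 h arrays, −0.18, −0.09 and −0.41 on siLsd1 48 h replicates 1, 2 and 3, and −0.02 to 0.03 on the siC arrays.

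Array by array, the median of the 32 genes was below 0 on each siLsd1 array, nearest to 0 on siLsd1 48 h replicate 2. The median over all genes tested lay between −0.04 and 0.03 on every array. The number of the 32 genes more than 0.5 (log2) below the mean of the siC arrays of the same time was 11 and 8 on the siLsd1 24 h arrays, and 7, 4 and 12 on siLsd1 48 h replicates 1, 2 and 3. On the siC arrays it was 1 to 3. Replicate 2 at 48 h, with 4 such genes, was thus close to the siC array with 3. Among all genes tested, 10.8% and 9.36% were that far below on the siLsd1 24 h arrays, 5.0%, 5.50% and 19.7% on siLsd1 48 h replicates 1, 2 and 3, and 0.828% to 2.59% on the siC arrays. Each siC array is part of the mean it is set against, which is not so of the siLsd1 arrays.

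Whether the siLsd1 change differed between the times was tested by the difference of the changes, 48 h minus 24 h. With all arrays 0 chain genes were called in this test, as were 0% of all genes, with 2 of 32 chain genes and 6.57% of all genes at an unadjusted p under 0.05. Without replicate 3, 2 were called with a positive difference (all genes 1.08%) and 0 with a negative one (0.396%). These were Col27a1, with a difference of 1.14 (SE 0.14, limma adjusted p 0.00626), and Col12a1, with 0.54 (SE 0.11, limma adjusted p 0.0428). The Col27a1 difference rests on 1 probe set with siLsd1 24 h intensities below the dim level of 18.4, and its sign was negative with replicate 3 included (−0.23, SE 1.38). The other Col27a1 probe set had a difference of −1.20 with all arrays and −0.45 without replicate 3, the second without a test. The time of 48 h was of a later passage, so time and passage cannot be told apart here or in the next comparisons.

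Between 48 h and 24 h few chain genes were called with all arrays, and in siLsd1 cells their share was close to that of all genes. In siLsd1 cells 2 of 32 were called higher at 48 h (Col6a2 and Col9a1), against 7.25% of all genes, and 2 lower (Col4a1 and Col4a2), against 7.13%. In siC cells 2 were called higher (Col27a1 and Col5a3), against 12%, and 2 lower (Col12a1 and Col4a2), against 12.2%. The median log2 change of the 32 was 0.06 in siLsd1 cells and 0.05 in siC cells, and that of all genes was 0.01 in both. Without replicate 3, siLsd1 cells had 11 called higher (21.3% of all genes) and 4 lower (17.1%). SiC cells then had 6 higher (21.1%) and 4 lower (19.3%). Called higher under both siRNAs in that fit were Col5a3, Col11a1, Col27a1, Col6a1, Col6a2 and Col16a1, and called lower under both were Col5a2, Col4a1 and Col4a2. How many of all genes were called under both siRNAs was not counted, so these lists have no share to be set against. The changes under the siRNAs use separate arrays but share the estimate of spread.

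Col27a1 had a log2 change of 3.08 in siLsd1 cells with all arrays (limma adjusted p 0.0611) and 4.46 without replicate 3 (limma adjusted p 1.86e-09), against 24 h arrays near the dim level. In siC cells it averaged 909 ± 50.2 at 48 h (SD, n = 3) and 91.2 ± 1.35 at 24 h (SD, n = 2), a 9.96-fold rise (log2 change 3.32 with SE 0.98, adjusted p 0.0329 by limma). Its other probe set rose too in siC cells (log2 change 2.82 with SE 0.57, adjusted p 0.00721 by limma over all probe sets). Col5a3 had a log2 change of 0.77 in siLsd1 cells, not called, with all arrays, and 1.21 without replicate 3 (limma adjusted p 0.161 and 4.97e-05). In siC cells it averaged 1182 ± 119 at 48 h (SD, n = 3) and 568 ± 118 at 24 h (SD, n = 2), a 2.10-fold rise (log2 change 1.07 with SE 0.34, adjusted p 0.0437 by limma).

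Col4a2 was called lower at 48 h under both siRNAs, and Col4a1 in siLsd1 cells by 1 of its probe sets. Col4a2 averaged 4109 ± 411 at 48 h and 4967 ± 83.8 at 24 h in siLsd1 cells (log2 change −0.28 with SE 0.08, adjusted p 0.0402 by limma). In siC cells it averaged 4795 ± 104 at 48 h and 5678 ± 80.4 at 24 h (log2 change −0.24 with SE 0.08, adjusted p 0.046 by limma). Col4a1 averaged 4871 ± 737 at 48 h and 6549 ± 89.4 at 24 h in siLsd1 cells (log2 change −0.44 with SE 0.10, adjusted p 0.0212 by limma), and its log2 change in siC cells was −0.22, not called (limma adjusted p 0.158). The second Col4a1 probe set had log2 changes of −0.07 in siLsd1 cells and −0.05 in siC cells, neither called. The Col4a1 call was lost in 6 of 23 alternatives, among them the one with its probe sets averaged. Each of the Col4a2 calls was lost in 14 of 23, among them quantile normalization, no filter on dim genes and no intensity trend. Without replicate 3 both genes were called lower at 48 h under both siRNAs, with log2 changes of −0.31 to −0.20.

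Col12a1 had a log2 change of −0.19 in siLsd1 cells (limma adjusted p 0.373). In siC cells it averaged 922 ± 50.3 at 48 h and 1396 ± 76.7 at 24 h, a 1.51-fold fall (log2 change −0.60 with SE 0.13, adjusted p 0.00809 by limma), with no overlap between the arrays. Col6a2 averaged 6141 ± 808 at 48 h and 4558 ± 19.3 at 24 h in siLsd1 cells, a 1.34-fold rise (log2 change 0.42 with SE 0.09, adjusted p 0.0159 by limma), and had a log2 change of 0.25 in siC cells (limma adjusted p 0.0819). Col9a1 averaged 43.9 ± 4.50 at 48 h and 24.4 ± 5.32 at 24 h in siLsd1 cells, a 1.81-fold rise (log2 change 0.86 with SE 0.21, adjusted p 0.0216 by limma), at dim intensities. This rise rests on the same siLsd1 24 h arrays as the 24 h fall of Col9a1. The other Col9a1 probe set had a log2 change of 0.0042 in siLsd1 cells, and the call was lost with the probe sets averaged. The dimmest probe set of Col1a2 rose at 48 h under both siRNAs, with log2 changes of 1.83 in siLsd1 cells and 2.40 in siC cells (limma adjusted p 0.00626 and 0.000726 with all probe sets tested). The brightest probe set of Col1a2 had −0.15 in siLsd1 cells and −0.07 in siC cells, not called with all arrays. Its probe set of middle intensity had −0.28 in siLsd1 cells and −0.12 in siC cells, so only the dimmest rose.

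**Figure D5:**
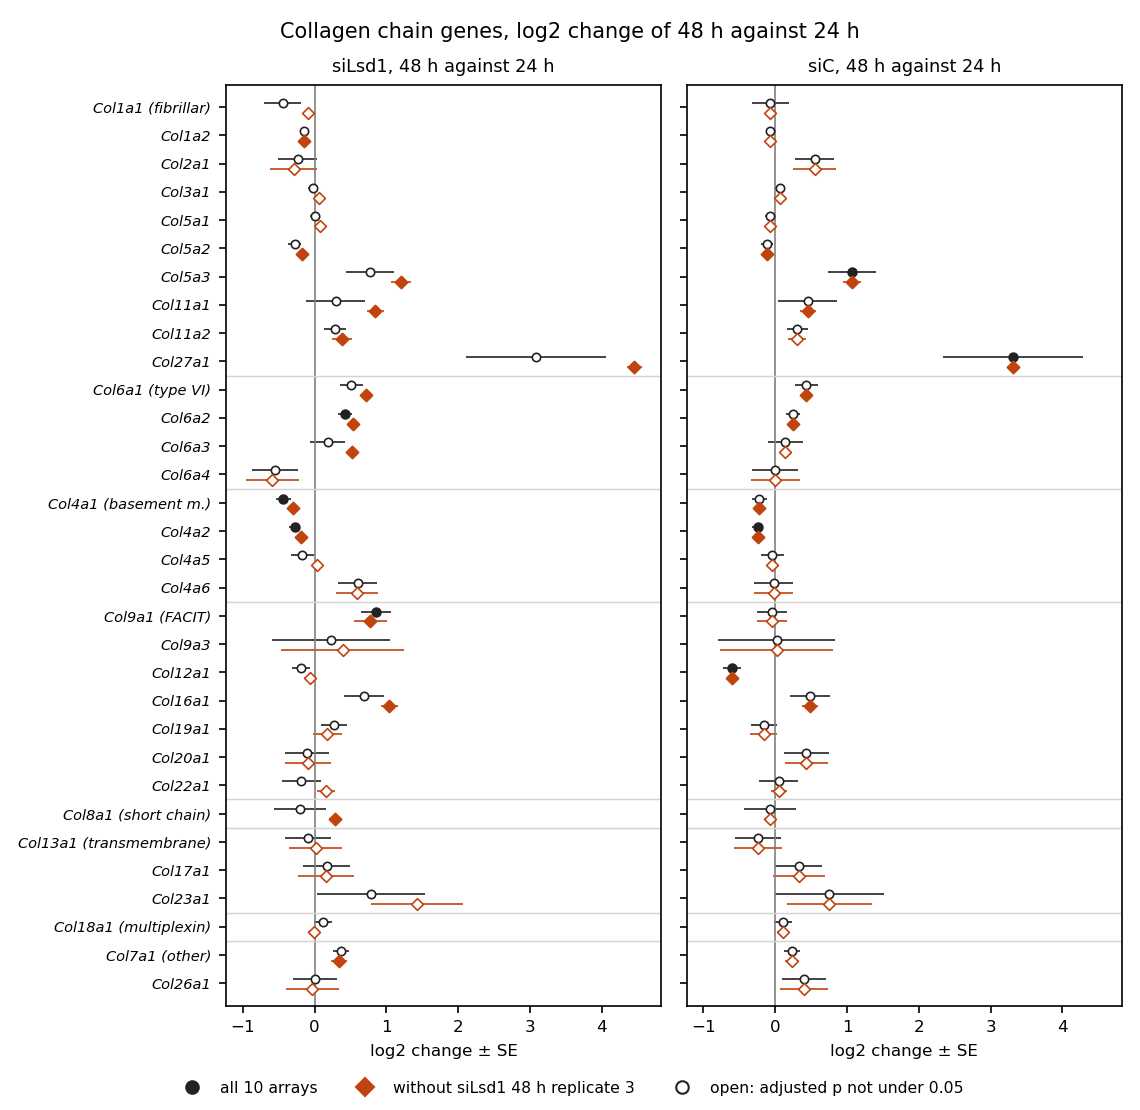
Log2 change (48 h minus 24 h, x axis, with SE) of each of the 32 chain genes tested, by class, in siLsd1 cells (left) and siC cells (right). Circles are the fit to 10 arrays and diamonds the fit without siLsd1 48 h replicate 3, and filled symbols have an adjusted p under 0.05. With all arrays 2 genes are higher and 2 lower in each panel, and Col27a1 lies furthest to the right in both.

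The 10 chain genes left out as dim were Col10a1, Col14a1, Col15a1, Col24a1, Col25a1, Col4a3, Col4a4, Col6a5, Col8a2 and Col9a2. Their intensities lay between 1.00 and 35.4 on all arrays, so no direction is given for them. The genes tested ranged from 10.6 to 14199. Col28a1 and Col6a6, the other collagen chain genes of RefSeq, were not analysed here.

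Genes that make, fold and handle collagen were read from lists of named genes. Of 22 collagen modification and folding genes tested, 0 were called higher and 3 lower at 24 h, and 1 higher and 4 lower at 48 h. Over all genes the lower calls were 2.79% at 24 h and 6.67% at 48 h, and the higher calls 2.6% and 6%. P3h3, a prolyl 3-hydroxylase family gene, had 124 and 128 with siLsd1, against 262 and 242 with siC at 24 h, and 139.6, 158 and 148 with siLsd1, against 281, 253 and 249 with siC at 48 h. The groups did not overlap, and it fell 2.00-fold and 1.76-fold (limma adjusted p 0.00307 and 0.0015). Sec23a, a coat protein of the vesicles that carry collagen out of the endoplasmic reticulum, fell 1.75-fold at 24 h and 1.62-fold at 48 h (limma adjusted p 0.0428 and 0.0251). P3h4, a partner of the lysyl hydroxylases, fell 1.56-fold at 24 h (limma adjusted p 0.00938). At 48 h Fkbp7, a prolyl isomerase of the endoplasmic reticulum, fell 1.53-fold, and Plod3, a lysyl hydroxylase, rose 1.27-fold (limma adjusted p 0.0348 and 0.0245). The median log2 change of the list was −0.37 and −0.31, and without replicate 3, 13 genes were lower and 2 higher at 24 h (15.3% and 10.1% of all genes), and 9 lower and 1 higher at 48 h (9.96% and 8.16%).

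Of 13 processing and cross-linking genes tested, 0 were called at 24 h and 2 were called lower at 48 h, where 6.67% of all genes were. Bmp1, the protease that trims the end of procollagen, had 726, 760.3 and 424 with siLsd1, against 1174, 1176 and 987 with siC at 48 h and fell 1.80-fold (limma adjusted p 0.0267). Tll1, a related protease, fell 2.53-fold (limma adjusted p 0.0499). Without replicate 3 the calls were 3 lower and 1 higher at 24 h (15.3% and 10.1% of all genes), and 4 lower and 1 higher at 48 h (9.96% and 8.16%). Among 9 receptor and uptake genes tested, the collagen receptor kinases went opposite ways. Ddr1 had 3175 and 3088 with siLsd1, against 1913 and 2104 with siC at 24 h, and 2976, 2948 and 2881 with siLsd1, against 1949.7, 2225 and 2221 with siC at 48 h. Ddr2 had 1469.6 and 1431 with siLsd1, against 2004 and 2104 with siC at 24 h, and 1889.9, 1853 and 1559.6 with siLsd1, against 2450.0, 2579 and 2555 with siC at 48 h. Ddr1 rose 1.56-fold and 1.38-fold (limma adjusted p 0.00473 and 0.00516) and Ddr2 fell 1.42-fold and 1.44-fold (limma adjusted p 0.02 and 0.00549). No other gene of that list was called with all arrays. In the fit without replicate 3 the calls were 2 lower and 1 higher at 24 h (15.3% and 10.1% of all genes). At 48 h they were 1 lower and 1 higher (9.96% and 8.16%).

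Of 23 genes known as regulators of collagen genes, 0 were called at 24 h, and 4 higher and 2 lower at 48 h, where 6% of all genes were higher and 6.67% lower. Ccn2, a matrix protein gene induced by TGF-beta, had 95.1, 70.4 and 140.0 with siLsd1, against 45.1, 38.5 and 55.4 with siC at 48 h and rose 2.14-fold (limma adjusted p 0.0187). Ciita, a transactivator that represses type I collagen genes in fibroblasts, rose 1.57-fold, and Smad2, which carries TGF-beta signals to the nucleus, rose 1.44-fold (limma adjusted p 0.0397 and 0.029). Cebpb, a transcription factor gene of early fat cell formation, was the other gene called higher. Sox9, the activator of cartilage collagen genes, fell 1.28-fold and Smad3 fell 1.25-fold (limma adjusted p 0.0332 and 0.0241). The median log2 change of these regulators was −0.02 at 24 h and −0.01 at 48 h. Without replicate 3, 4 were lower and 2 higher at 24 h, where 15.3% and 10.1% of all genes were, and 3 lower and 4 higher at 48 h, where 9.96% and 8.16% were.

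The labelled cell type was set against its markers. Of 11 fibroblast markers 10 were on the array and 9 were bright enough to test, Cd34 being dim. Their summed intensity was 34773 to 34779 on the siLsd1 24 h arrays and 42858 to 44078 on the siC 24 h arrays, and 29854 to 41369 on the siLsd1 48 h arrays and 45629 to 45914 on the siC 48 h arrays, lowest on replicate 3 at 48 h. The sum was thus lower on each siLsd1 array than on the siC arrays of its time, but it is weighted to the brightest markers. The median log2 change of the 9 markers tested was −0.54 at 24 h and −0.58 at 48 h, and −0.18 at 48 h without replicate 3. The part of the markers in the result was not tested. Thy1, a surface protein of fibroblasts, had 639 and 748 with siLsd1, against 1253 and 1209.9 with siC at 24 h, and 678, 616 and 494 with siLsd1, against 1109, 1013 and 1029 with siC at 48 h. It fell 1.78-fold at both times (limma adjusted p 0.0112 and 0.00412). The fibronectin gene Fn1 fell 1.37-fold at 24 h, and Lum, a proteoglycan gene of collagen fibrils, fell 3.36-fold at 48 h (limma adjusted p 0.0249 and 0.0102), while Vim lay between 12713 and 14168 on all arrays. With all arrays 2 of the 9 fibroblast markers were called lower at 24 h and 2 at 48 h (2.79% and 6.67% of all genes). No fibroblast marker was called higher by siRNA. Without replicate 3, 6 of 9 were lower at 24 h and 4 at 48 h (15.3% and 9.96% of all genes). Single markers of mature adipocytes, endothelial cells and epithelial cells stayed at or below 80.6, 76.7 and 33.5, those of macrophages and osteoblasts at or below 138 and 53.2, and none of these was called by siRNA. The 4 muscle markers summed to 319 to 373 on the siLsd1 arrays and 183 to 251 on the siC arrays at 24 h, and to 221 to 281 on the siLsd1 arrays and 169 to 214 on the siC arrays at 48 h. Des was called higher at 48 h (1.42-fold, limma adjusted p 0.0458). Among 4 cartilage markers, Sox9 reached 969, and Acan, Comp and Matn1 stayed at or below 52.6.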

How the data were processed

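RNA of 10 cultures was measured on Affymetrix mouse expression arrays. The intensity values are linear as deposited, 1 per probe set, and their summarisation and normalization are not given in the sources used here. The smallest deposited intensity was 0.76 and the largest 15820. Gene symbols were those of the platform annotation for probe sets with 1 symbol, and each gene was read by its probe set of highest mean over all arrays. The 25% of genes with the lowest mean, under an intensity of 18.4, were left out, and log2 intensities of the remaining 13644 were fitted in 1 model of the 4 groups (limma 3.58.1 in R 4.3.3, lmFit and eBayes with an intensity trend). P-values were adjusted by Benjamini-Hochberg over all genes tested within each comparison, and a call is an adjusted p under 0.05. The scripts were tested on simulated data. The number of arrays limits the precision. Array values are printed for main chains of fibroblast matrix and for every chain called in any of the 5 comparisons. Genes of the other lists are named where they were among the 3 called with the largest fold in a comparison. Plod3, Cebpb, Sox9, Smad3 and Des, and the array values of Col4a5, Col11a1, Col16a1 and Col18a1, were chosen after their values were seen. The members and lists were chosen with earlier results of these data known. Alternatives changed the choice of probe set, the filter, the scale, the variance model and the arrays used.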

Additional observations from a re-analysis of the deposited data

Results flagged for a closer look

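The siLsd1 change of 2 collagen chain genes differed between 48 h and 24 h in the test of the difference itself, when siLsd1 48 h replicate 3 was left out. For Col12a1 the change at 48 h exceeded that at 24 h by 0.54 on the log2 scale (limma adjusted p 0.0428), and with all arrays the difference was 0.41 (limma adjusted p 0.751). The 3 other Col12a1 probe sets had differences of 0.04, 0.72 and −0.82 with all arrays. For Col27a1 the change at 48 h exceeded that at 24 h by 1.14 (limma adjusted p 0.00626), where both siLsd1 24 h arrays lay under the dim level, and with all arrays the difference was −0.23 (limma adjusted p 0.995). The other Col27a1 probe set had a difference of the opposite sign, −1.20 with all arrays and −0.45 without replicate 3, the second without a test.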

How the results depend on the processing

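Counts of collagen chain genes called, with all 10 arrays, were 2 for siLsd1 against siC at 24 h, 4 at 48 h, 0 for the difference of these changes, 4 for 48 h against 24 h in siLsd1 cells and 4 in siC cells, and counts are given in that order here. Shares of all genes are given only for the main fit and the fit without siLsd1 48 h replicate 3. Between these 2 fits, lower calls at 24 h rose from 2.79% to 15.3% of all genes. A changed count below is therefore not shown to be particular to the chain genes. With all probe sets in the fit, and each gene still counted by its brightest, the counts were 1, 2, 0, 3 and 3. Calls of other probe sets in that fit, such as those of Col18a1 and Col1a2, are not in them. Probe sets averaged within each gene gave 1, 4, 0, 2 and 3. No filter on dim genes gave 1, 2, 0, 3 and 2, and leaving out the lowest 50% gave 1, 5, 0, 6 and 4. Quantile normalization gave 2, 7, 0, 3 and 3, no intensity trend 2, 1, 0, 1 and 1, and array weights 13, 14, 2, 14 and 14. With only the arrays of each comparison in the fit, the counts were 14 and 0 by siRNA, and 0 in siLsd1 cells and 10 in siC cells by time, and the difference gave no value. Averaging siLsd1 48 h replicates 1 and 2 gave 1, 8, 0, 2 and 4. With the replicate block the counts were 2, 7, 0, 5 and 5. Deviations of same-numbered arrays had correlations of −0.07 at 24 h, and of −0.19, 0.05 and −0.06 at 48 h. With 2 arrays a group, the 24 h arrays of unlike number had the same value with the sign turned, 0.07. Groups of 2 or 3 arrays cannot show whether the numbers pair samples.

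Leaving out 1 array gave 0 to 14, 0 to 10, 0 to 2, 0 to 15 and 0 to 10 calls. Without siLsd1 48 h replicate 3 the counts were 14, 9, 2, 15 and 10, without replicate 1 of that group 1, 7, 0, 1 and 3, and without its replicate 2 they were 1, 10, 0, 5 and 4. Without siLsd1 24 h replicate 1 or 2 they were 0, 1, 0, 0 and 1. Without siC 24 h replicate 1 they were 0, 1, 0, 3 and 0, and without its replicate 2 they were 0, 1, 0, 3 and 1. Without siC 48 h replicate 1 they were 1, 0, 0, 4 and 1, and without its replicate 2 or 3 they were 1, 1, 0, 3 and 1. Where 1 array of a 24 h group was left, it was assumed to vary like the other groups. The fall of Col6a2 passed the test in 19 of 23 alternatives at 24 h and 21 of 23 at 48 h. The median log2 change of the chain genes ranged over the alternatives between −0.29 and −0.14 at 24 h, and between −0.35 and −0.13 at 48 h. The Col27a1 difference between times turned to 1.14 without siLsd1 48 h replicate 3, and was −0.93 without replicate 2. The Col8a1 change at 48 h in siLsd1 cells turned to 0.29 without replicate 3, and was −0.47 without replicate 1. The Col1a2 change at 48 h in siC cells turned to 0.74 with the mean of its probe sets, of which the dimmest rose.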
